A study of Homo sapiens with 20 samples.

Results

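The genes described here are the well-expressed numbered ZNF genes of HEK293T cells, that is, genes whose symbol is ZNF followed by digits alone. HEK293T is a line derived from human embryonic kidney into which SV40 large T antigen was introduced. The genes were selected on their control levels: a gene was included when its mean was 8 TPM or more in the non-targeting libraries of set 1 and in those shared by sets 2 and 3. TPM relates the reads of a transcript to its length and to the library as a whole. This gave 266 genes of the 472 numbered ZNF symbols and of 45372 symbols in all, and 206 numbered ZNF symbols lay under the threshold. The study measured the RNA response of these cells to small interfering RNA (siRNA) against HUWE1, a large ubiquitin ligase of the HECT class. It held 5 groups of 4 libraries: HUWE1 siRNA set 1 with its own non-targeting siRNA group, and HUWE1 siRNA sets 2 and 3 with 1 non-targeting group between them. The set 1 libraries carry no set number in the labels and are called set 1 here, and the difference between the siRNA sets was not given in the sources used here. All 20 libraries came from the same line after siRNA transfection, and the submitters describe the 4 libraries of a group as biological replicates. Since the control levels chose the genes, those levels are given as a description, and the same control libraries are the baseline of every fold change of a HUWE1 siRNA set.

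Most ZNF genes encode proteins with arrays of C2H2 zinc fingers, small folds in which a pair of cysteines and a pair of histidines hold a zinc ion and whose tips read DNA bases. In the largest class, a KRAB domain at the amino end recruits the scaffold TRIM28 (KAP1), which brings the histone methyltransferase SETDB1, HP1 proteins and the NuRD complex, and the bound DNA is silenced. Many KRAB zinc finger proteins bind transposable elements, and their genes arose by repeated tandem duplication, so that large clusters lie on chromosome 19. Others carry a SCAN domain, which pairs the proteins with each other, and a minority act as activators or in RNA metabolism.

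HUWE1 mRNA was lower in each siRNA set than in the non-targeting libraries. It was at 86.1, 86.9, 83.5 and 83.6 TPM in the HUWE1 siRNA libraries of set 1, against 157, 162, 155 and 155 TPM in the non-targeting libraries of set 1. It averaged 94.6 ± 2.26 TPM in HUWE1 siRNA set 2 and 84.8 ± 5.42 TPM in HUWE1 siRNA set 3, against 163.3 ± 3.49 TPM in their shared non-targeting libraries (SD, n = 4 each). The remaining level was 54.1% of the controls in set 1, 57.9% in set 2 and 51.9% in set 3, with no overlap between groups (2-sided exact permutation p = 0.0286 in each, the smallest that 4 against 4 allows). All 7 markers of the HEK293T line that were looked up (among them PAX2, LIN28B and NEFL) averaged 1 TPM or more in every group. Their summed level was 837 to 868 TPM in the HUWE1 siRNA libraries of set 1, against 949 to 999 TPM in the non-targeting libraries of set 1, and 1138 to 1330 TPM in HUWE1 siRNA set 2 and 1232 to 1322 TPM in HUWE1 siRNA set 3, against 1110 to 1284 TPM in the shared controls. Vimentin (VIM) made up most of this sum, and the markers went both ways. In set 1, LIN28B, NEFL, NEFM and VIM fell and CDH2 rose, and in set 3, NEFL and NEFM fell and 5 of the 7 had a negative value (median -0.24), while VIM was at 0.34 without passing the test (limma, as below). The part of this difference in the results below was not tested. Of 11 markers of blood, endothelial, fibroblast, liver and epidermal cells, 3 averaged 1 TPM or more in the first table and 1 in the second. Their summed levels were 14.9 to 16.4 TPM and 6.51 to 9.20 TPM. The files hold TPM and not counts, so the sequencing depth is unknown. Libraries of a group correlated at 0.992 or more across genes, except the non-targeting group shared by sets 2 and 3, whose lowest pair was at 0.980. Because the RNA is from bulk cultures, fewer cells expressing a gene and less RNA per cell cannot be told apart in any value below.

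Of the 266 genes, 265 were found in GENCODE release 29 on GRCh38, where they are protein coding. Chromosome 19 holds 103 of them, chromosomes 16 and 7 hold 22 each and chromosome 1 holds 14. A search of their protein translations for the C2H2 spacing (C, 2 to 4 residues, C, 12 residues, H, 3 to 5 residues, H) gave a median of 10 matches per gene. A pattern of the KRAB A box matched 139 genes and did not match 126. The pattern misses divergent KRAB domains, such as those of ZNF202 and ZNF263, so the second group is not free of KRAB proteins. Genes with the KRAB match had a median of 12 finger matches and transcripts of 42.5% GC, and the others had 7 and 51.4%. The median transcript of all 266 was 4130 bases long with 44.9% GC, against 3298 bases and 48.5% over all 16057 genes tested in set 1. Exons of 41 genes overlap exons of a protein-coding gene on the other strand and those of 45 overlap one on the same strand. On the other strand these include ZNF410 (FAM161B, up to 976 bases), ZNF593 (AL391650.1, 383) and ZNF687 (PI4KB, 384). On the same strand they include ZNF395 (FBXO16, 544) and again ZNF410 (AC005520.1, 776). A gene given below without mention of an overlap is not thereby free of one. The handling of such reads, and of reads shared by near-identical ZNF paralogs, was not given in the sources used here.

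Promoters of RefSeq (GRCh38.p14, 250 bases before to 50 bases after the start) were matched to 230 of the genes, which have 300 such promoters. The following 4 are shown because their genes passed the test in the same direction in sets 1 and 3, ZNF584 and ZNF202 lower, and ZNF267 and ZNF197 higher. Capitals mark matches on either strand to CACGTG (the E-box), GGGCGG (the GC box, CCGCCC on the other strand), CCAAT (the CCAAT box, ATTGG on the other strand) and TATAAA (the TATA box).
ZNF584, chr19:58408399-58408698, plus strand: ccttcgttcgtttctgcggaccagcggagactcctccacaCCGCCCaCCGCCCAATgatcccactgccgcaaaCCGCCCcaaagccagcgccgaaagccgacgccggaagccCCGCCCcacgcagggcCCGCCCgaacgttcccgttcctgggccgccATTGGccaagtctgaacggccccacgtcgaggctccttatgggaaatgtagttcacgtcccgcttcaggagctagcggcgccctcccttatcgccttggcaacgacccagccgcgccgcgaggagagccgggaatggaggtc
ZNF202, chr11:123741611-123741910, minus strand: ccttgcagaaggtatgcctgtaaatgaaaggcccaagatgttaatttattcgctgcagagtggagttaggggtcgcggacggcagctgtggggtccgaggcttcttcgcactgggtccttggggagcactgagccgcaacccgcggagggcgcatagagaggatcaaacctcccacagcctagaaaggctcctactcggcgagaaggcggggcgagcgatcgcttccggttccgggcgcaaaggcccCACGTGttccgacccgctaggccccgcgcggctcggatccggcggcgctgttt
ZNF267, chr16:31873557-31873856, plus strand: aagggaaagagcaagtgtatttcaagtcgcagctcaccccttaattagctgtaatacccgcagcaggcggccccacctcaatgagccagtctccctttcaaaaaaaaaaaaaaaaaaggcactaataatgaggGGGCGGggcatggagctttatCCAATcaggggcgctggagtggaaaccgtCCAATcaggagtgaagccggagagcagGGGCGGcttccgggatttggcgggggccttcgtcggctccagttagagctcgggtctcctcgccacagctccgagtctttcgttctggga
ZNF197, chr3:44624786-44625085, plus strand: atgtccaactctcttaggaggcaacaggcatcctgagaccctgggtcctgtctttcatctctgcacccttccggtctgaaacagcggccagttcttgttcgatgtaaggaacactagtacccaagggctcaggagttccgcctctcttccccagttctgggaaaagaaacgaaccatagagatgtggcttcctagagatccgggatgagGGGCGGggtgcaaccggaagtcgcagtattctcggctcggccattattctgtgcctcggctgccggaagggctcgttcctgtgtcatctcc

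The ZNF584 window holds 5 GC boxes and 2 CCAAT boxes, of which 1 of each overlap by their shared cytosines. ZNF267 holds 2 of each, ZNF197 holds 1 GC box, and ZNF202 holds 1 E-box (RefSeq also lists a second start for ZNF202, whose window held none of the 4 motifs). Over the genes' 300 promoters, 62.7% held a GC box, 41.7% a CCAAT box, 6% an E-box and 4% a TATA box. The shares over all 35116 RefSeq promoters were 45%, 34.6%, 7.26% and 11.5% in the same order. A match in these letters is a description of the window and says nothing of what binds there.

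The ZNF genes were mostly of modest level. The mean of both control groups ran from 8.25 TPM to 485.4 TPM, with quartiles of 12.7, 20.03 and 32.7 TPM, and 231 of the 266 genes were above 8 TPM in each of the 20 libraries. The highest was ZNF503, a NET-family repressor that lacks a canonical C2H2 array, followed by ZNF768, whose amino-terminal repeats resemble the tail of RNA polymerase II. ZNF703, the relative of ZNF503 known as a breast cancer oncogene, came next. ZNF593, whose yeast counterpart Bud20 takes part in export of the large ribosomal subunit, followed, and after it ZNF146, which consists almost wholly of fingers, and ZNF664. Their non-targeting means in set 1 were 360.6 TPM for ZNF503, 481.4 TPM for ZNF768, 276.9 TPM for ZNF703, 277.1 TPM for ZNF593, 181.8 TPM for ZNF146 and 158.6 TPM for ZNF664. At the threshold, ZNF532, ZNF165 and ZNF668 were just inside, with a lower control mean of 8.03, 8.06 and 8.06 TPM, and ZNF394, ZNF414 and ZNF559 just outside, at 7.99, 7.99 and 7.97 TPM.

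In set 1, more ZNF genes fell than rose with HUWE1 siRNA. Of the 266 genes, 95 fell, 27 rose and 144 did not pass the test (limma on log2(TPM + 1), Benjamini-Hochberg adjusted p under 0.05 over all genes tested). That is 45.9% of the ZNF genes, against 30.3% of all 16057 genes tested, of which 17.9% were lower and 12.3% higher. Among the 10186 tested genes that met the same 8 TPM threshold, 37.1% were called, 21.9% lower and 15.2% higher, and among the ZNF genes 35.7% were lower and 10.2% higher. The changes were small, from -0.52 to 0.35 on the log2 scale, and 1 gene (ZNF853) changed by 0.5 or more. The median fold change was -0.07 for the ZNF genes and -0.01 for all genes, and 174 ZNF genes had a negative value. With the 8 TPM threshold applied to the HUWE1 siRNA libraries instead of the controls, 253 genes were included, of which 85 fell and 27 rose in set 1.

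**Figure D1:**
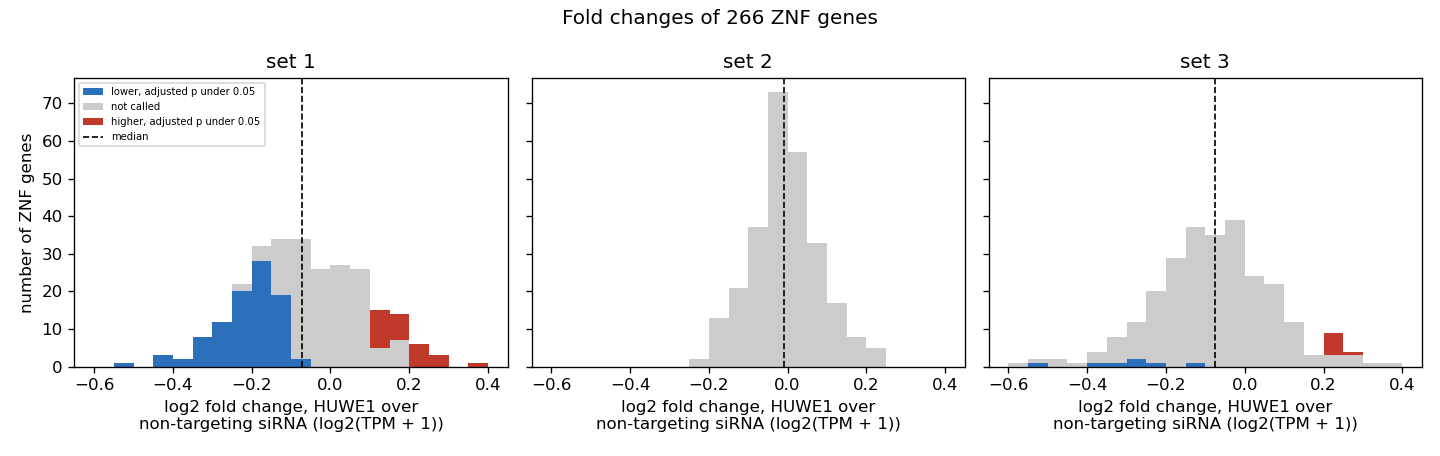
Number of ZNF genes (vertical axis) by log2 fold change of HUWE1 siRNA over non-targeting siRNA (horizontal axis, log2(TPM + 1) scale) in sets 1, 2 and 3, coloured by the limma call at an adjusted p of 0.05, with the median as a dashed line. The distribution of set 1 has 95 lower and 27 higher calls, set 2 has none, and set 3 has 7 of each with a median of -0.08.

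The same shift was seen library by library. Each gene's log2 level was taken as its deviation from that gene's mean over the table, and the median over the 266 genes was -0.02, -0.04, -0.03 and -0.05 in the HUWE1 siRNA libraries of set 1, against 0.03, 0.03, 0.04 and 0.04 in the non-targeting libraries. All 4 HUWE1 siRNA libraries lay under all 4 controls. The same order held, at a smaller size, over all 16057 genes tested, at -0.00986 to -0.00259 against -0.00258 to 0.0207. It also held over the 145 weaker numbered ZNF genes tested, at -0.0437 to -0.00694 against 0.0267 to 0.0368. The summed level of the 266 genes was 8356 ± 60.8 TPM with HUWE1 siRNA and 8713 ± 131 TPM with non-targeting siRNA (SD, n = 4), under 1% of all TPM in each of these libraries.

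**Figure D2:**
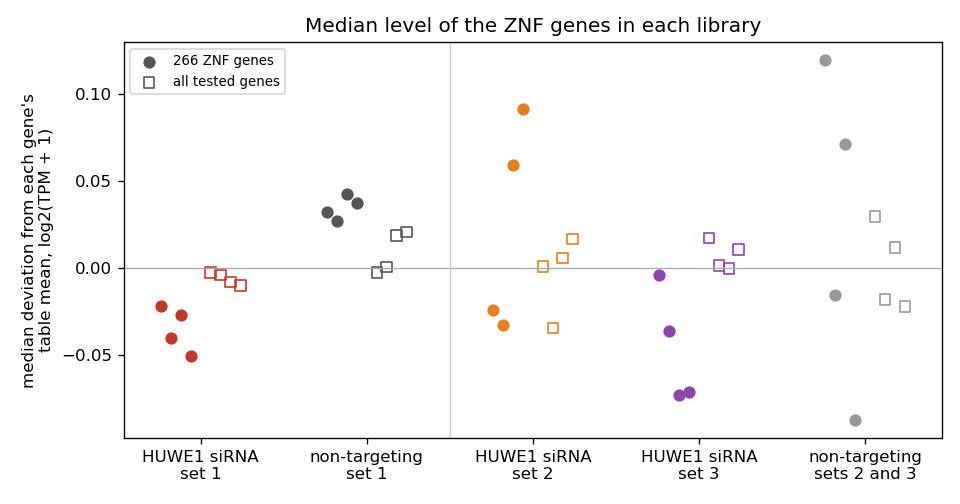
Median deviation of log2(TPM + 1) from each gene's mean over its table (vertical axis) in each library, for the 266 ZNF genes (filled circles) and for all tested genes (open squares), by group. In set 1 the HUWE1 siRNA libraries lie between -0.05 and -0.02 and the controls between 0.03 and 0.04, and the non-targeting libraries of sets 2 and 3 spread from -0.09 to 0.12.

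The largest decrease was in ZNF853, a gene of chr7:6615617-6624290. It was at 22.3, 20.7, 20.7 and 20.1 TPM with HUWE1 siRNA, against 30.2, 30.6, 32.4 and 28.8 TPM with non-targeting siRNA. Every HUWE1 siRNA library was under every control, and the log2 fold change was -0.52 (SE 0.0435, limma adjusted p = 7.74e-05). ZNF232, a SCAN-domain gene at chr17:5105541-5123116, was at 29.4, 29.7, 28.3 and 26.3 TPM with HUWE1 siRNA, against 37.8, 36.3, 40.4 and 38.8 TPM. These groups were also apart, with a log2 fold change of -0.42 (SE 0.0453, limma adjusted p = 0.000249).

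KRAB genes made up part of the strongest decreases among called genes with groups apart. A gene of chromosome 19 with the KRAB match had a lower value, -0.43, than ZNF232 but fell outside that rule and is not named. ZNF57 (chr19:2900898-2918476, 13 finger matches) averaged 16.1 ± 1.19 TPM with HUWE1 siRNA and 21.9 ± 1.66 TPM with non-targeting siRNA (log2 fold change -0.42, limma adjusted p = 0.00118). ZNF584 (chr19:58401504-58418327, 8 finger matches), whose promoter is printed above, was at 11.3, 9.75, 9.63 and 9.37 TPM with HUWE1 siRNA, against 14.3, 13.8, 13.0 and 12.02 TPM (log2 fold change -0.38, limma adjusted p = 0.00255). ZNF84 (chr12:133037292-133063304, 19 finger matches) averaged 35.001 ± 2.15 TPM with HUWE1 siRNA and 44.5 ± 1.80 TPM without it (log2 fold change -0.34, limma adjusted p = 0.000715). In each of these genes the 2 groups did not overlap, which the rule for naming them required. Over all 16057 genes tested in set 1, 2955 were lower and 2130 higher with groups apart.

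Genes without the KRAB match were among the strongest decreases as well. ZNF165, a SCAN-domain gene known as a cancer-testis antigen, averaged 7.07 ± 0.474 TPM with HUWE1 siRNA and 9.45 ± 0.474 TPM with non-targeting siRNA (log2 fold change -0.37, limma adjusted p = 0.00101). ZNF48 averaged 48.2 ± 3.01 and 61.4 ± 2.03 TPM in the same order (log2 fold change -0.34, limma adjusted p = 0.000582). ZNF768 was at 366, 400, 378 and 374 TPM with HUWE1 siRNA, against 521, 446, 460 and 498 TPM. It is the highest ZNF gene in these controls, and its log2 fold change was -0.34 (limma adjusted p = 0.000895). ZNF48 and ZNF768 are neighbours at chr16:30378106-30400108 and chr16:30524001-30526821, and exons of ZNF48 overlap those of SEPT1 on the other strand. The other 4 genes at the top of the level order were ZNF593, ZNF146 and ZNF664, which fell, and ZNF703, which did not pass the test. Their log2 fold changes were -0.27 for ZNF593, -0.15 for ZNF146, -0.15 for ZNF664 and 0.03 for ZNF703 (limma adjusted p = 0.00332, 0.00947, 0.00461 and 0.606).

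The increases in set 1 were fewer and reached smaller sizes. ZNF680, a KRAB gene at chr7:64519884-64563106, was at 10.01, 11.4, 10.3 and 10.8 TPM with HUWE1 siRNA, against 6.29, 8.23, 9.49 and 8.78 TPM, and the groups did not overlap. Its log2 fold change was 0.35 (SE 0.0994, limma adjusted p = 0.0242), and the adjusted p was 0.0645 without HUWE1 set 1 replicate 2, 0.0594 without replicate 4 and 0.0676 with no filter on low genes. ZNF267, a KRAB gene at chr16:31873758-31917357 described in activated liver stellate cells, was at 10.2, 9.94, 9.84 and 11.03 TPM with HUWE1 siRNA, against 7.92, 7.95, 8.73 and 8.75 TPM. The lowest HUWE1 siRNA library was above the highest control, with a log2 fold change of 0.27 (SE 0.0516, limma adjusted p = 0.00398). ZNF362, a relative of the transcription factor ZNF384, averaged 24.7 ± 1.48 TPM with HUWE1 siRNA and 20.5 ± 0.8287 TPM with non-targeting siRNA (log2 fold change 0.26, limma adjusted p = 0.00303).

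ZNF76, which binds promoters through the same element as its paralog ZNF143, averaged 35.5 ± 3.02 TPM with HUWE1 siRNA and 29.8 ± 1.02 TPM with non-targeting siRNA (log2 fold change 0.24, limma adjusted p = 0.00909). ZNF143 itself had a log2 fold change of -0.11 and did not pass the test. ZNF276 averaged 41.1 ± 1.68 and 34.8 ± 1.23 TPM in the same order (log2 fold change 0.23, limma adjusted p = 0.00152). Its exons overlap those of FANCA on the other strand by up to 737 bases. The libraries were stranded, and reads of ZNF276 and FANCA may be mixed if the counting ignored the strand, which was not given. ZNF200, ZNF503 and the KRAB gene ZNF708 also rose, with log2 fold changes of 0.22, 0.21 and 0.20 (limma adjusted p = 0.00462, 0.0144 and 0.0148).

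**Figure D3:**
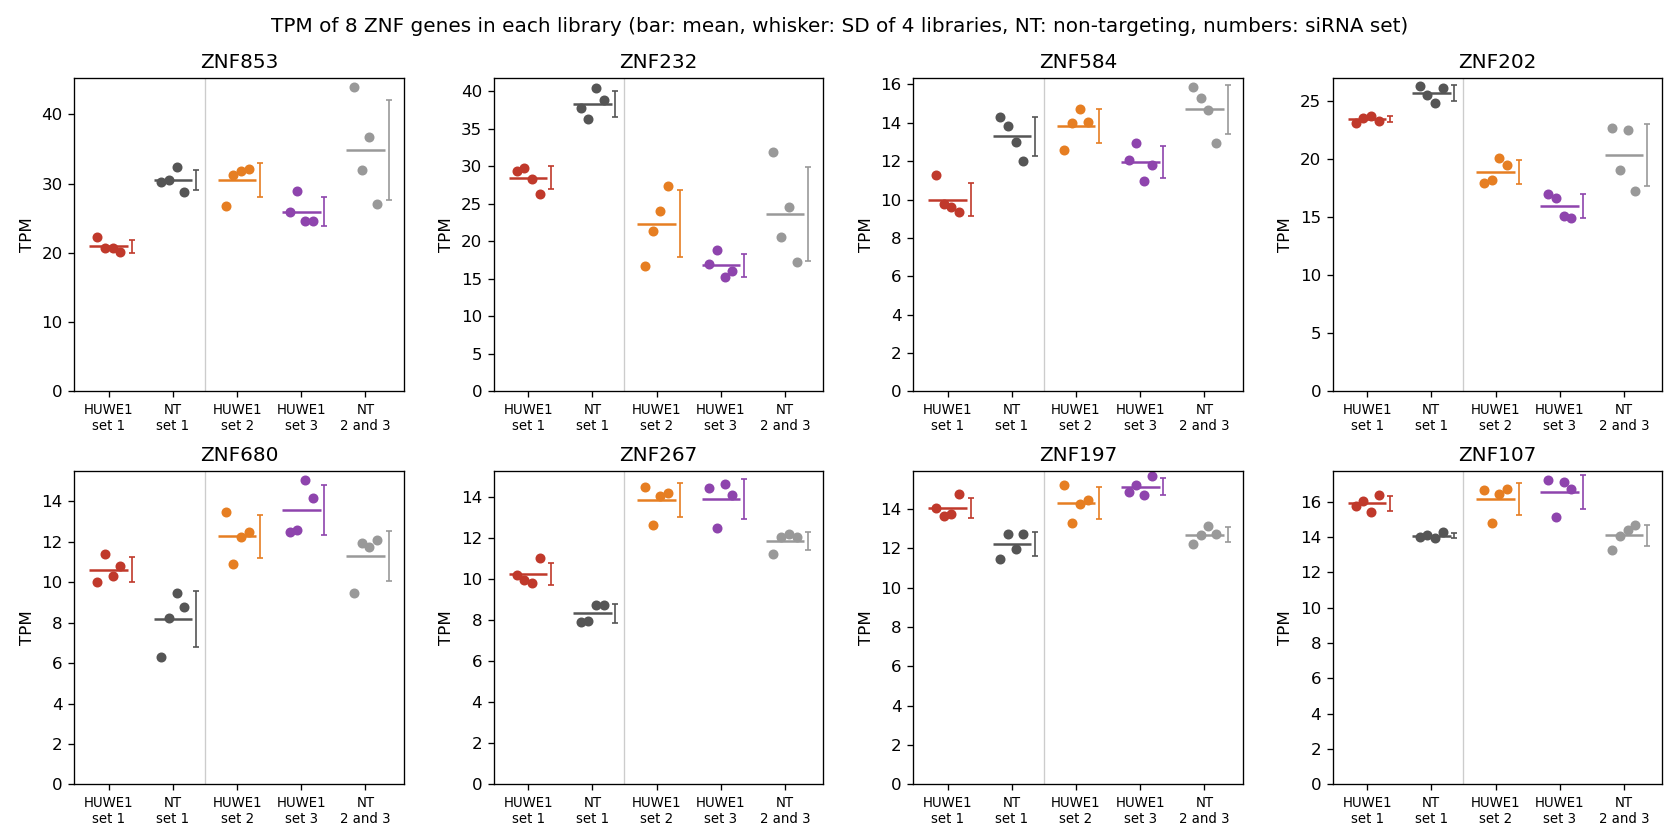
TPM of 8 ZNF genes (vertical axes, from 0) in each library, by siRNA and set, with the mean of 4 libraries as a bar and the SD as a whisker beside it. The upper row holds ZNF853, ZNF232, ZNF584 and ZNF202, which fell in set 1, and the lower row ZNF680, ZNF267, ZNF197 and ZNF107, which rose in set 1.

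More genes fell than rose in set 1 both with and without the KRAB match. Of the 139 with the match, 56 fell (40.3%) and 13 rose, with a median log2 fold change of -0.09. Of the 126 without it, 39 fell (31%) and 14 rose, with a median of -0.06. Among all tested genes at 8 TPM or more, 21.9% were lower and 15.2% higher. On chromosome 19, 43 of 103 genes fell (41.7%) and 7 rose (median -0.10). On the other chromosomes 52 of 162 fell (32.1%) and 20 rose (median -0.06). The 2 splits overlap. Of 78 genes with the match on chromosome 19, 35 fell and 5 rose (median -0.11). Of 61 with the match on other chromosomes, 21 fell and 8 rose (median -0.06). These differences were not tested. By control level, 42 of the 132 genes at 8 to 20 TPM fell and 10 rose, 42 of the 104 genes at 20 to 50 TPM fell and 11 rose, and 11 of the 30 genes at 50 TPM or more fell and 6 rose, the last with a median of 0.00. Across the 265 annotated genes the set 1 fold changes had a rank correlation of -0.00328 with transcript GC content. Their rank correlation with the number of finger matches was -0.133. The other sets differed from this. The correlation with GC content was -0.348 in set 2 and -0.246 in set 3, and that with finger matches was 0.188 and 0.0465. All these values are descriptions over genes measured in the same libraries, 8 of them in set 1, and sets 2 and 3 share their controls.

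Some runs of neighbouring ZNF genes had fold changes largely of 1 sign. Runs of 4 or more of the 266 genes with gaps of at most 500 kb numbered 14. In set 1, 35.7% of the 266 ZNF genes were lower and 10.2% higher, against 21.9% and 15.2% of all genes at 8 TPM or more. The run at chr19:36214602-37719790, from ZNF146 to ZNF607, holds 14 genes, of which 10 fell in set 1 and none rose (median -0.16). None of these 14 genes was called in set 2 or set 3, where the medians were -0.0051 and -0.18. Among them ZNF461 had a log2 fold change of -0.30 and ZNF420 one of -0.25, while ZNF529 was at 0.10 without passing the test. The run at the end of the long arm, chr19:57191500-58481230, holds 23 genes, of which 10 fell and 1 rose (median -0.11), with ZNF584 the lowest at -0.38. At chr16:30378106-31084196, 4 of 9 genes fell and none rose, namely ZNF48, ZNF768, ZNF689 and ZNF747. The set 1 median was positive in 4 of the 14 runs. At chr7:64307459-64833681, the KRAB genes ZNF736, ZNF680, ZNF107 and ZNF138 had a median of 0.10, and ZNF680 and ZNF107 rose. At chr19:21082159-21767628, the 5 genes from ZNF714 to ZNF100 all had positive values (median 0.16), and ZNF708 rose. At chr19:55476332-56626481, 3 of 10 genes had a negative value and 1 rose and 1 fell (median 0.09). At chr16:3112560-3409370, 1 of 5 had a negative value and 2 rose (median 0.01). Genes of a run can share reads where their sequences are alike, and they share their libraries, so the runs carry no test.

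**Figure D4:**
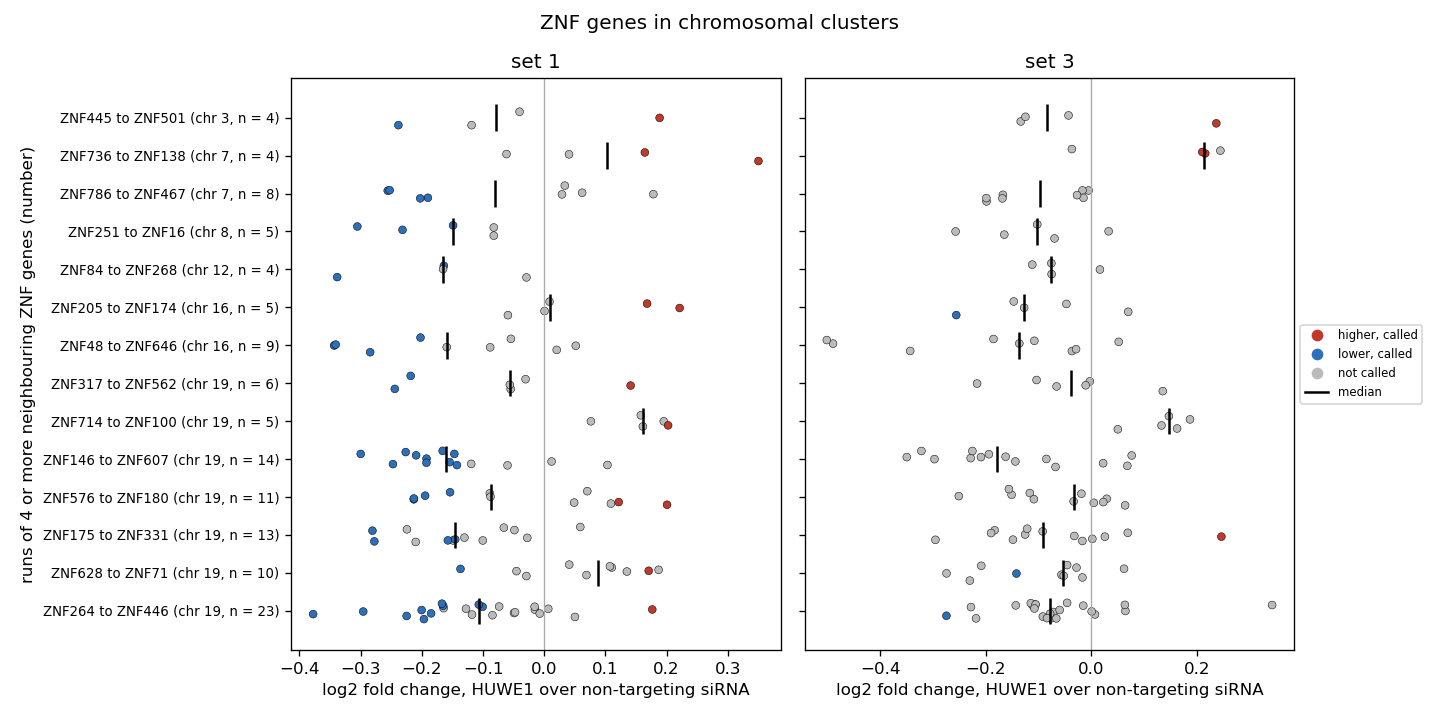
Log2 fold change of HUWE1 over non-targeting siRNA (horizontal axis) in sets 1 and 3 for the ZNF genes of each of 14 chromosomal runs (rows, with the first and last gene, the chromosome and the number of genes), coloured by call, with the median of a run as a black line. The 14-gene run from ZNF146 to ZNF607 is centred on -0.16 in set 1 and -0.18 in set 3, and the 4-gene run from ZNF736 to ZNF138 on 0.10 and 0.21. In set 3 the former holds no called gene and the latter 2 higher ones.

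Genes with known roles were looked at by role, from lists that overlap in part. Of 8 genes acting on RNA, translation or ribosome assembly, 4 fell and 1 rose in set 1 and none passed in sets 2 and 3. The share of all genes called in set 1, to set beside this and each role list below, was 30.3%, or 37.1% of those that met the 8 TPM threshold. ZNF593 was at 210, 245, 226 and 236 TPM with HUWE1 siRNA, against 285, 260, 271 and 292 TPM with non-targeting siRNA, with no overlap. ZNF326, a subunit of the DBIRD complex that couples transcript elongation to splicing, averaged 53.3 ± 1.21 TPM with HUWE1 siRNA and 59.6 ± 3.44 TPM with non-targeting siRNA (log2 fold change -0.16, limma adjusted p = 0.0151). ZNF622 and ZNF638 fell by 0.11 and 0.09 on the log2 scale. ZNF207 (BuGZ), which binds the spindle checkpoint protein BUB3, averaged 72.4 ± 1.76 and 63.1 ± 4.92 TPM in the same order and rose (log2 fold change 0.20, limma adjusted p = 0.016). ZNF598, a ubiquitin ligase that senses collided ribosomes, had a log2 fold change of 0.04 (SE 0.0334, limma adjusted p = 0.452).

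Of 9 genes that act in chromatin or co-repressor complexes, 1 fell and 1 rose in set 1 (22.2%). ZNF410, known for its narrow set of targets that centres on CHD4, averaged 39.3 ± 2.33 TPM with HUWE1 siRNA and 44.1 ± 1.05 TPM with non-targeting siRNA (log2 fold change -0.16, limma adjusted p = 0.0141). CHD4 itself had a log2 fold change of 0.03 and did not pass the test. ZNF516, linked in mouse to brown fat gene transcription, averaged 14.1 ± 0.286 TPM with HUWE1 siRNA and 12.7 ± 0.390 TPM with non-targeting siRNA (log2 fold change 0.14, limma adjusted p = 0.017). ZNF687, ZNF592 and ZNF532, relatives that join the reader protein ZMYND8, had values of -0.04, -0.06 and -0.07, none past the test. ZNF217, an oncoprotein of the CoREST and CtBP complexes, was at -0.09 (limma adjusted p = 0.118).

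Of 7 promoter-binding activators, ZNF76 and ZNF711 rose in set 1 and none fell (28.6% called). ZNF711, an X-linked gene of intellectual disability whose protein binds the demethylase PHF8, averaged 126.9 ± 4.10 TPM with HUWE1 siRNA and 115.0 ± 6.14 TPM with non-targeting siRNA (log2 fold change 0.14, limma adjusted p = 0.0226, 0.0532 without HUWE1 set 1 replicate 1, 0.0546 with no filter and 0.0571 with the replicate number as a block). ZNF281, a stem cell and mesenchymal transition factor, and ZNF148, a GC-box binder, had values of -0.12 and -0.05 and did not pass the test. Of 3 developmental regulators, ZNF503 rose and ZNF703 and ZNF704 did not pass.

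Of 6 KRAB factors known to act on transposable elements, imprinted regions, ZNF genes or metabolic genes, ZNF10 and ZNF202 fell in set 1 and none rose. ZNF10 (KOX1), whose KRAB domain is the one used in CRISPR interference, averaged 21.3 ± 1.01 TPM with HUWE1 siRNA and 24.0 ± 0.439 TPM with non-targeting siRNA (log2 fold change -0.16, limma adjusted p = 0.00918). ZNF274, which brings SETDB1 to the 3' ends of ZNF genes, was at -0.05 (limma adjusted p = 0.224), and ZNF445, a factor of imprint maintenance, at -0.04. Of 16 SCAN-domain genes, 6 fell and 1 rose, which is 43.8%, near the 45.9% of all 266 ZNF genes and the 37.1% of all genes at this level. The genes that fell were ZNF18, ZNF165, ZNF202, ZNF232, ZNF446 and ZNF500, with log2 fold changes from -0.42 in ZNF232 to -0.13 in ZNF202, and the gene that rose was ZNF444 (0.17).

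In set 2, none of the 266 ZNF genes passed the test (limma, set 2 and its controls fitted with set 3), against 0.0126% of all 15860 genes. At an unadjusted p under 0.05 there were 21 ZNF genes, against 8.83% of all genes. The values ran from -0.24 to 0.22, with a median of -0.01 that was 0.00 under quantile normalization. The SE of a ZNF gene's log2 fold change had a median of 0.0698 in the second table and 0.0444 in set 1. The 4 genes with the smallest p were ZNF721, ZNF267, ZNF395 and ZNF197. ZNF721 was at 53.1, 50.6, 53.1 and 54.8 TPM in HUWE1 siRNA set 2, against 45.8, 46.4, 49.3 and 48.6 TPM in the non-targeting libraries, with no overlap (log2 fold change 0.15, limma adjusted p = 0.428). ZNF267 and ZNF197 were at 0.20 and 0.16 (limma adjusted p = 0.453 in both), and ZNF395, a factor that binds papillomavirus and Huntingtin gene promoters, at -0.17 (limma adjusted p = 0.453). In the comparison of set 1 with its own controls, ZNF721, ZNF267 and ZNF197 rose and ZNF395 fell.

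In set 3, 7 ZNF genes rose and 7 fell, 5.26% of the 266, against 11.6% of all genes tested, of which 7.45% were higher and 4.15% lower. Among tested genes that met the 8 TPM threshold, 13.8% were called, 8.49% higher and 5.3% lower. At an unadjusted p under 0.05 there were 81 ZNF genes, against 34.5% of all genes. Mitochondrially encoded genes took 15.5% to 16.4% of TPM in HUWE1 siRNA set 3, against 16.6% to 18.3% in the non-targeting libraries, and with TPM recomputed without these genes 6 ZNF genes rose and 11 fell. The median log2 fold change was -0.08 (0.01 for all genes), 190 of the 266 values were negative, and the range was -0.55 to 0.37. The median deviation over the ZNF genes was -0.00, -0.04, -0.07 and -0.07 in the libraries of HUWE1 siRNA set 3 and -0.02, -0.03, 0.06 and 0.09 in those of set 2, against 0.12, -0.02, 0.07 and -0.09 in the non-targeting libraries. The controls thus spanned both sets. The non-targeting libraries 1 and 4 lay at the ends of this span, and their summed ZNF levels were 0.969% and 0.776% of all TPM. Leaving out non-targeting replicate 4 gave 25 higher and 84 lower ZNF genes, and leaving out non-targeting replicate 1, 2 or 3 gave 2 and 0 each. Without HUWE1 set 3 replicate 3 or 4 none was called, and without replicate 1 there were 2 and 0. Each call in set 3 was therefore lost when at least 1 library was left out.

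The 7 genes that rose in set 3 all carry the KRAB match, as do 139 of the 266 genes. Of the 7 that fell, ZNF584 carries it, and ZNF202 and ZNF263 are KRAB proteins that the pattern misses. Over the 139 genes with the match, 93 had a negative value in set 3 (median -0.07). ZNF337 (chr20:25674215-25696841, 19 finger matches) was at 36.4, 35.1, 36.8 and 37.0 TPM in HUWE1 siRNA set 3, against 26.7, 31.0, 29.2 and 34.5 TPM in the non-targeting libraries. The groups did not overlap, with a log2 fold change of 0.26 (SE 0.0643, limma adjusted p = 0.0312), but an annotated antisense gene overlaps its exons. ZNF83 and ZNF789 rose as well, with log2 fold changes of 0.25 and 0.23 (limma adjusted p = 0.0371 and 0.0342), and in set 1 they were at -0.07 and 0.03 without passing the test. ZNF736, the neighbour of ZNF680 and ZNF107 on chromosome 7, was at 14.2, 14.3, 14.7 and 14.9 TPM in HUWE1 siRNA set 3, against 11.9, 12.2, 12.7 and 12.9 TPM. Its groups were apart and its log2 fold change was 0.21 (SE 0.0419, limma adjusted p = 0.0165), while in set 1 it was at -0.06 (limma adjusted p = 0.313).

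The genes that fell in set 3 were led by ZNF503, which is named with its opposite result in set 1 below. ZNF488, known in mouse as a partner of the oligodendrocyte factor OLIG2, was at 7.04, 6.63, 6.24 and 5.33 TPM in HUWE1 siRNA set 3, against 8.91, 8.07, 9.99 and 7.26 TPM. The groups did not overlap, and the log2 fold change was -0.38 (SE 0.102, limma adjusted p = 0.0362). ZNF263, a SCAN and KRAB protein, averaged 18.2 ± 0.789 TPM in HUWE1 siRNA set 3 and 22.03 ± 2.36 TPM in the non-targeting libraries (log2 fold change -0.26, limma adjusted p = 0.0361), and exons of TIGD7 lie opposite its own. ZNF580 averaged 46.7 ± 1.37 and 51.6 ± 1.19 TPM in the same order (log2 fold change -0.14, limma adjusted p = 0.0347), and shares exonic sequence with its neighbour ZNF581 on the same strand. Several genes with larger set 3 values did not pass, among them ZNF593 at -0.55 (limma adjusted p = 0.0591), ZNF48 at -0.49 (0.0745) and ZNF232 at -0.44 (0.0933). In these 3 the non-targeting libraries spread widely, as in ZNF593, which was at 171, 185, 144 and 135 TPM in HUWE1 siRNA set 3 against 310, 219, 249 and 170 TPM in the non-targeting libraries.

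Sets 1 and 3 rest on separate controls, and 6 ZNF genes passed the test in the same direction in both, which is 6 of the 122 called in set 1 and of the 14 called in set 3. ZNF267, ZNF197, ZNF107 and ZNF337 rose in both. ZNF584 and ZNF202 fell in both. Of all 15296 genes tested in both tables, 2.47% were higher in both, 2.05% lower in both and 0.601% opposite, and the 4 and 2 of 266 ZNF genes that moved alike are a smaller share than this background.

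ZNF197, a KRAB protein that binds the von Hippel-Lindau protein, lies at chr3:44584888-44648471. It was at 14.02, 13.7, 13.8 and 14.8 TPM in HUWE1 siRNA set 1, against 11.4, 12.7, 11.9 and 12.7 TPM in its controls. In HUWE1 siRNA set 3 it was at 14.9, 15.2, 14.7 and 15.7 TPM, against 12.2, 12.7, 13.1 and 12.7 TPM. Both pairs of groups were apart, and the log2 fold changes were 0.19 and 0.24 (limma adjusted p = 0.0108 and 0.0169). ZNF107 was at 15.8, 16.0, 15.4 and 16.4 TPM in HUWE1 siRNA set 1, against 13.99, 14.1, 13.9 and 14.3 TPM, and at 17.2, 15.1, 17.1 and 16.7 TPM in HUWE1 siRNA set 3, against 13.3, 14.1, 14.4 and 14.7 TPM. Its groups did not overlap in either set, with log2 fold changes of 0.16 and 0.22 (limma adjusted p = 0.00468 and 0.0344). ZNF267 averaged 13.9 ± 0.972 TPM in HUWE1 siRNA set 3 and 11.9 ± 0.433 TPM in the non-targeting libraries (log2 fold change 0.21, limma adjusted p = 0.0409). ZNF337 had a log2 fold change of 0.10 in set 1 (limma adjusted p = 0.02, 0.052 without non-targeting replicate 4 and 0.0537 without HUWE1 set 1 replicate 3).

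ZNF202, a SCAN and KRAB repressor of lipid metabolism genes such as ABCA1, lies at chr11:123724177-123741675. It was at 23.1, 23.6, 23.7 and 23.3 TPM in HUWE1 siRNA set 1, against 26.4, 25.6, 24.9 and 26.1 TPM in its controls. In HUWE1 siRNA set 3 it was at 17.0, 16.6, 15.1 and 14.95 TPM, against 22.7, 19.1, 22.5 and 17.2 TPM. The groups were apart in both, narrowly so in set 3, and the log2 fold changes were -0.13 and -0.33 (limma adjusted p = 0.00952 and 0.0316). ZNF584 was at 12.1, 13.0, 10.99 and 11.8 TPM in HUWE1 siRNA set 3, against 15.9, 15.3, 14.7 and 12.9 TPM, and 1 control lay within the range of the HUWE1 siRNA libraries (log2 fold change -0.27, limma adjusted p = 0.0334).

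ZNF503 and ZNF276 passed the test in opposite directions in the 2 sets. ZNF503 was at 387, 443, 418 and 424.6 TPM in HUWE1 siRNA set 1, against 356, 326, 376 and 384 TPM, all HUWE1 siRNA libraries being higher. In HUWE1 siRNA set 3 it was at 458, 459, 362 and 375 TPM, against 799, 583, 619 and 440 TPM, where the groups overlap. The log2 fold changes were 0.21 and -0.54 (limma adjusted p = 0.0144 and 0.0402), and the 4 controls of set 3 spread by far more than those of set 1. ZNF276 averaged 12.3 ± 0.427 TPM in HUWE1 siRNA set 3 and 14.5 ± 0.789 TPM in the non-targeting libraries (log2 fold change -0.22, limma adjusted p = 0.0394). The difference between the sets was not tested, and each of these sets has its own controls.

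Most genes called in set 1 were not called in set 3, and many had the same sign there. Of the 95 genes that fell in set 1, 82 (86.3%) had a negative value in set 3, and of the 27 that rose, 18 (66.7%) had a positive one. Of the 144 not called in set 1, 68.8% were negative in set 3 as well, so the negative sign was frequent in either case. Over all genes tested in both tables, 75.3% of those lower in set 1 were negative and 77.5% of those higher were positive in set 3. In set 2, which shares its controls with set 3, 69 of the 95 (72.6%) were negative and 17 of the 27 (63%) positive. Of the 144 not called in set 1, 46.5% were negative in set 2. Over all genes, 74.5% of those lower in set 1 were negative in set 2 and 67.6% of those higher were positive. The rank correlation of the set 1 and set 3 fold changes was 0.498 over the 266 genes and 0.393 over all 15296, as a description across genes of the same libraries.

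**Figure D5:**
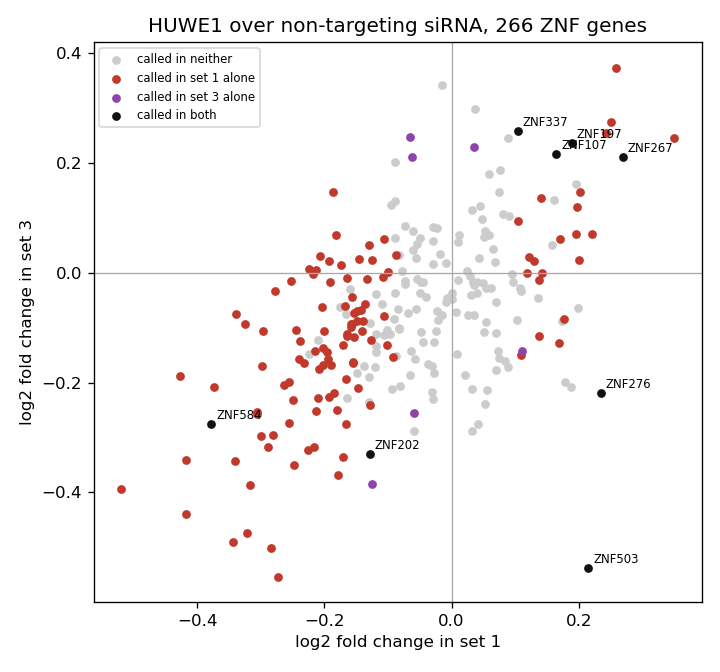
Log2 fold change of HUWE1 over non-targeting siRNA for each of 266 ZNF genes in set 1 (horizontal axis) and in set 3 (vertical axis), coloured by call, with the 8 genes called in both named. Of these, 4 are higher in both, 2 are lower in both, and ZNF503 and ZNF276 lie in the quadrant of opposite signs.

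HUWE1 siRNA set 3 was also set against HUWE1 siRNA set 2 without the controls. None of the 266 ZNF genes passed the test, against 0.517% of all genes. Of the 266, 23 had an unadjusted limma p under 0.05, a smaller share than the 2507 of all 15860 genes (15.8%). The median difference was -0.07 (0.01 for all genes), and 204 values were negative. The smallest p was that of ZNF687, which was at 34.5, 33.2, 31.0 and 30.9 TPM in HUWE1 siRNA set 3, against 39.5, 36.2, 36.3 and 38.7 TPM in HUWE1 siRNA set 2. The groups did not overlap, and the log2 difference was -0.21 (SE 0.0522, limma adjusted p = 0.097). ZNF276, ZNF532 and ZNF529 followed, with log2 differences of -0.20, -0.19 and -0.15 and limma adjusted p of 0.154, 0.155 and 0.155.

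The partners through which KRAB proteins silence DNA were followed as a list of 26 genes. In set 1, 4 of them rose and 6 fell, with a median of -0.01, and these 38.5% are near the 37.1% called among all genes at 8 TPM or more. TRIM28, the scaffold, averaged 280.1 TPM with HUWE1 siRNA and 260.6 TPM with non-targeting siRNA and rose (log2 fold change 0.10), as did ATRX (0.22), MTA1 (0.18) and GATAD2B (0.13). SETDB1, the methyltransferase, had a log2 fold change of 0.04 and did not pass the test. MTA2 of the NuRD complex was at 98.2, 95.5, 96.4 and 88.3 TPM with HUWE1 siRNA, against 108, 111, 106 and 105 TPM, with no overlap (log2 fold change -0.19, limma adjusted p = 0.00407). DAXX, the histone chaperone that works with ATRX, fell by 0.14 on the log2 scale (limma adjusted p = 0.00987). CBX1, CBX5, MORC2 and HDAC2 also fell, with log2 fold changes of -0.08, -0.11, -0.07 and -0.09. The adjusted p of CBX5 was 0.0533, 0.0585 and 0.0576 in limma without non-targeting replicate 2, non-targeting replicate 4 and HUWE1 set 1 replicate 3, and under quantile normalization it was 0.0981 for CBX5 and 0.065 for DAXX.

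In set 3, 3 of the 26 partners rose and 2 fell, with a median of 0.09, which is 19.2% called, against 13.8% of all genes at 8 TPM or more. PPHLN1 (periphilin, of the HUSH complex), CBX5 (HP1 alpha) and the DNA methyltransferase DNMT1 rose, with log2 fold changes of 0.21, 0.30 and 0.17 (limma adjusted p = 0.0368, 0.0387 and 0.041). CHD3, a NuRD helicase, averaged 46.2 ± 1.91 TPM in HUWE1 siRNA set 3 and 53.7 ± 2.54 TPM in the non-targeting libraries (log2 fold change -0.21, limma adjusted p = 0.0228). MTA2 fell there too (-0.18, limma adjusted p = 0.0477). In set 2 none of the 26 passed the test, and in set 3 against set 2 UHRF1 alone was higher. CBX5 fell in set 1 and rose in set 3, and each of the set 3 calls was lost under at least 1 alternative.

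Weaker ZNF genes and the related gene families give the setting. Of the 206 numbered ZNF symbols under the threshold, 145 could be tested in set 1, and 27 fell and 4 rose (median -0.06), which is 21.4%, against 30.3% of all genes. In set 3, 146 could be tested, and 5 rose and 1 fell (median 0.04), which is 4.11%, against 11.6% of all genes. Genes at 8 TPM or more were called more often, at 37.1% in set 1 and 13.8% in set 3. They are part of both all-gene shares, which are thus not matched to the level of the weaker ZNF genes. Of 40 ZBTB genes tested, which pair fingers with a BTB domain, 7 fell and 7 rose in set 1 (35% called, median -0.01), and of 16 ZSCAN genes 2 fell and 1 rose (18.8% called, median -0.01). Of 17 ZFP genes, 6 fell and none rose (35.3% called, median -0.11). Of 26 ZNF genes whose symbol also carries a letter, 9 fell and 3 rose in set 1 (median -0.05). These 46.2% called are near the 45.9% of the 266 numbered ZNF genes. Of 6 ZKSCAN genes, 1 fell (16.7% called, median -0.05). The differences between these families were not tested.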

How the data were processed

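RNA was extracted with Trizol and made into stranded mRNA libraries (TruSeq), per the labels' protocols. The TPM values deposited by the authors stand in 2 tables, of which one holds set 1 and the other holds sets 2 and 3. Processing used hg38, per the submitters' processing notes. The names of aligner, counter and annotation were not given in the sources used here. TPM values of each library sum to a fixed total, so a rise in abundant transcripts lowers the rest, and the depth and counting error are unknown.

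Values were analysed as log2(TPM + 1), which understates changes of low genes, for genes that reached 1 TPM in 4 or more libraries of their table. limma 3.58.1 (R 4.3.3, variance trend) was fitted on the 8 libraries of set 1 and, for the second table, on all 12 libraries, giving sets 2 and 3 against shared controls and set 3 against set 2. P-values were adjusted over all genes tested, and a call is an adjusted p under 0.05. All 266 ZNF genes passed the filter in both tables. The fits were tested on simulated data. The TPM values of HUWE1, and of no other gene, were also compared by an exact permutation test. Coordinates, transcript GC and length are from GENCODE 29 (GRCh38), which held 97.9% of the tested symbols.

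The genes and lists were chosen with earlier results of these data known. Named are HUWE1, the 6 highest ZNF genes, in sets 1 and 3 up to 8 called genes in each direction by fold change with groups apart, genes called alike in both, the 4 smallest p where none was called, the genes at the threshold, and up to 3 per role list (4 of the co-repressor list). For the genes picked by fold change with groups apart, that separation was fixed by the choice and adds no support. ZNF461, ZNF420 and others given with their run, role list or complex lie outside the naming rule and were chosen after their values were seen. Alternatives were the pseudocount, filter, scaling, variance trend, replicate block, GC and length trend, threshold, groups fitted and left-out libraries.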

Additional observations from a re-analysis of the deposited data

Results flagged for a closer look

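Among 315 groups of 4 values of 63 named genes, 12 held a library apart from the other 3 by Dixon's criterion, which chance alone does in about 1 of 20 groups. In the HUWE1 siRNA libraries of set 1, ZNF736 was at 14.5 TPM in replicate 1, against 13.0 to 13.2 TPM in the others, and CBX5 at 96.2 TPM in replicate 4, against 91.5 to 92.0 TPM. In HUWE1 siRNA set 2, replicate 2 was low in ZNF107 (14.8 TPM), ZNF516 (12.8 TPM) and PPHLN1 (21.97 TPM), and replicate 1 in ZNF853 (26.8 TPM). In the non-targeting libraries of set 1, replicate 4 was high in ZNF362 (21.7 TPM) and ZNF394 (9.80 TPM), and replicate 3 was high in ZNF217 (17.7 TPM) and low in ZNF248 (14.2 TPM). In the controls shared by sets 2 and 3, ZNF680 was low in replicate 1 (9.48 TPM) and ZNF598 in replicate 4 (65.9 TPM).

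In 2 genes every HUWE1 siRNA library lay on one side of its controls in set 1 and on the opposite side in set 3. ZNF276 had a log2 fold change of 0.23 in set 1 and -0.22 in set 3, and CBX5 one of -0.11 in set 1 and 0.30 in set 3. The difference between the sets was not tested.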

How the results depend on the processing

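HUWE1 kept its direction and call under every alternative run, with leave-one-out log2 fold changes of -0.89 to -0.86 in set 1, -0.79 to -0.77 in set 2 and -0.97 to -0.91 in set 3. No value changed sign past the threshold. In set 1, leaving out single libraries gave 22 to 28 higher and 75 to 95 lower ZNF genes and a median of -0.0844 to -0.0618. That median was -0.0581 after median-of-ratios scaling, -0.0569 after quantile normalization, -0.0568 without the GC and length trend, -0.0568 at 20 TPM or more, -0.0591 for genes chosen on the HUWE1 siRNA libraries. Over all genes the set 1 median was -0.0124 in the main fit. It was 0.00199 after median-of-ratios scaling, 0.00687 after quantile normalization and 0.0063 without the GC and length trend. In that order, ZNF calls were 32 higher and 80 lower, 32 and 83, and 36 and 91. Without the filter they were 19 and 78. At 20 TPM or more, 120 genes held 16 higher and 48 lower calls in set 1 and 1 and 4 in set 3, fewer genes being counted. In set 2 the left-out libraries gave medians of -0.05 to 0.02 and 0 calls.

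In set 3 the counts moved with most choices. Single left-out libraries gave 0 to 25 higher and 0 to 84 lower genes and medians of -0.11 to -0.04. There were 2 higher and 1 lower without the filter, and 1 and 0 when fitted without set 2. The lower count was 12 at a mean of 5 TPM, 12 after median-of-ratios scaling, 13 after quantile normalization, 11 without mitochondrially encoded genes and 15 without the GC and length trend. Without both non-targeting libraries 1 and 4 there were 11 higher and 26 lower. Set 3 against set 2 gave 1 call under quantile normalization, 2 without the GC and length trend and 2 without those libraries. The causes were not tested. The labels do not say whether a replicate number marks a shared culture or day. Same-numbered libraries had correlations of -0.481 to 0.407 in their deviations, and most matched a library of another number best. HUWE1 set 3 replicates 1 and 4 matched the controls of their own number best (0.201 and 0.407). These values cannot decide whether the libraries are paired. With the replicate number as a block, set 1 gave 27 higher and 88 lower and set 3 gave 5 and 0. Of the named genes, 32 of 37 called in set 1 kept the call under each alternative and 0 of 19 in set 3 did. The unknown depth and 4 libraries per group limit the precision of each value.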
